A study of Mus musculus with 4 samples.

Results

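The EGR, NR4A and NAB genes are 8 genes of the transcriptional response to T cell receptor (TCR) signalling: the zinc finger factors Egr1, Egr2 and Egr3, the orphan nuclear receptors Nr4a1, Nr4a2 and Nr4a3, and the corepressors Nab1 and Nab2. They were chosen by symbol, and all 8 were found among the 24537 genes of the deposited table. All 8 also reached a mean of 1 FPKM (fragments per exon length and library size), as did 9810 genes in all. RNA was sequenced from CD8+ T cells that had entered B16-GP33 tumours of mice, at day 21 after implantation, with 2 libraries labelled ACSS2NLS and 2 labelled EV, the control. B16 is a melanoma line of mouse origin. GP33 is a viral peptide epitope, from lymphocytic choriomeningitis virus, seen by CD8+ T cells. The enzyme ACSS2 converts acetate to acetyl-CoA, and NLS commonly stands for nuclear localisation signal. The labels give neither the strain nor the age of the mice, nor how ACSS2 was added. A group with added ACSS2 but no such signal is not among the samples, so how much ACSS2 there was and where it lay cannot be told apart. Nothing in the labels ties the libraries to separate mice, so the p-values cover the spread between these libraries only, and that spread may be technical.

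EGR and NR4A genes are immediate early genes, transcribed within minutes of TCR engagement without new protein synthesis. Egr1 induction runs mainly through the RAS and ERK kinases and serum response factor (SRF). NR4A induction draws on calcium, calcineurin, MEF2 and CREB as well. EGR proteins bind GC-rich sites and switch on Nab2 among other genes, and NAB proteins bind EGR factors and repress them, which closes a feedback loop. In T cells EGR2 and EGR3 are known for anergy and for restraining activation, and NR4A factors for the exhausted state of cells that see antigen for a long time.

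Upstream sequences are shown for the 3 NR4A genes and Egr2, because each had a window with at least 2 CRE half-sites, described below. Whether these short letter matches act on the levels given further on was not tested. RefSeq start regions (build GRCm38.p6, the assembly that mm10 names) were matched for 6 of the 8 genes. Egr1 and Egr3 had no match, so their upstream sequences were not searched. The 250 bases before each start were searched on both strands for the CRE half-site TGACG, shown as its reverse complement where it lies on the other strand, the full CRE TGACGTCA, the CArG box of SRF, the EGR site GCGTGGGCG, a close form of it, GCGGGGGCG, and the NR4A site AAAGGTCA. The half-site lies within the full CRE, so a full CRE would also count as a pair of half-sites. Capitals mark CRE half-sites in all 4 stretches, and in Egr2 also the CArG box. None of the stretches overlaps an annotated GENCODE exon. Those of Nr4a1 and Egr2 lie in an intron of a longer transcript of the same gene. They are chr15:101266596-101266815 on the plus strand for Nr4a1, chr2:57124104-57124213 on the minus strand for Nr4a2, chr4:48045055-48045152 on the plus strand for Nr4a3 and chr10:67537739-67537828 on the plus strand for Egr2.
Nr4a1: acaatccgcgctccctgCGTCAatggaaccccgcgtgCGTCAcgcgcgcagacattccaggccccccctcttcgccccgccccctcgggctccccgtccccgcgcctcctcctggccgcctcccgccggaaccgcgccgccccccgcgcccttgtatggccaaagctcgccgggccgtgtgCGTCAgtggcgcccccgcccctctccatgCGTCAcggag
Nr4a2: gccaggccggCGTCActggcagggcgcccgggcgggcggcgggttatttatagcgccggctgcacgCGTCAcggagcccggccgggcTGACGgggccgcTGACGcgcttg
Nr4a3: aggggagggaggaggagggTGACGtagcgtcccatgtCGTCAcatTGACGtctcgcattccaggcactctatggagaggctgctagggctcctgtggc
Egr2: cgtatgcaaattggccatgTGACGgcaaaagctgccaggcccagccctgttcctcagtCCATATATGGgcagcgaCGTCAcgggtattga

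Each of the 3 NR4A genes held 4 CRE half-sites in its 250 bases, of which 3 fall within the stretch shown for Nr4a3. The other Nr4a3 half-site lies in an annotated GENCODE exon of Nr4a3. Windows with at least 4 half-sites made up 0.137% of the 32851 windows of the same length in the RefSeq table. Those with at least 1 made up 17.8%. The half-site itself holds CG, and the windows were not matched for CG content. The Nr4a1, Nr4a2 and Nr4a3 windows held CG 34, 44 and 18 times. RefSeq gives several starts of Egr2, and the motifs differ between their windows. Before the start at position 67537869 Egr2 held 2 half-sites and a CArG box, 63 to 72 bases upstream, a motif found in 1.47% of windows, and the windows of the starts at 67537870 and 67537930, the last that of the counted transcript, hold the same ones. The window of the start at 67537566 held a different CArG box and no half-site, and that of the start at 67535499 held neither. Nab1 held 1 CRE half-site. It also held the EGR site 2 times, and windows with at least 2 EGR sites made up 0.0213% of all. At least 1 copy of the EGR site stood in 0.536% of windows. The close form of it was held once each by Nab1 and Nr4a1 and by 2.57% of windows. Every match in the Nab1 window lies in an annotated GENCODE exon of Nab1. Nab2 held none of the searched motifs in its window, and no window of the 6 genes held the full CRE or the NR4A site, which 1.55% and 1.34% of windows held. These matches describe letters and not measured binding.

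The libraries comprised 46000000 to 49300000 tags each (rounded to 100000), with 39.6% to 41.9% of them on exons. Single genes of the set were covered by 561 to 19093 tags per library. Acss2, the check of the labels, stood at 80.7 and 86.3 FPKM in ACSS2NLS and 3.66 and 3.92 FPKM in EV. All 11 CD8 T cell markers were present, with a summed level of 2211 and 1722 FPKM in ACSS2NLS replicates 1 and 2, against 2352 and 1953 FPKM in EV replicates 1 and 2. Transcripts of other cells were present too, and their levels varied within the groups. The 25 myeloid markers summed to 616 and 1856 FPKM in ACSS2NLS replicates 1 and 2, and to 271 and 1260 FPKM in EV replicates 1 and 2. The 11 melanoma markers summed to 11.5 and 140 FPKM in ACSS2NLS replicates 1 and 2, and to 5.64 and 38.8 FPKM in EV replicates 1 and 2. Of the defining markers of these lists, S100a9 and Gpr143 were at 0 in ACSS2NLS replicate 1, and no marker of either list was at 0 in every library. In both groups replicate 2 was therefore the library with more myeloid and melanoma RNA. Between the groups, 20 of 23 tested myeloid markers averaged higher in ACSS2NLS, with a median log2 change of 0.86, as did 6 of 6 melanoma markers (1.15) and 4 of 4 stromal and endothelial markers (0.87), where 53.2% of all genes were higher. The 8 stromal and endothelial markers summed to 17.5 and 18.5 FPKM in ACSS2NLS, against 8.61 and 14.4 FPKM in EV. None of these markers passed the test over all genes. Most of them stood in the same direction as Egr2, Nab2, Nr4a3 and Egr3. Their part in those genes was not tested beyond the fits below with the myeloid or melanoma marker level as a covariate. The 3 lower myeloid markers were S100a8, S100a9 and Cd14, each lower in both ACSS2NLS libraries. Cd14 was at 3.09 and 5.04 FPKM in ACSS2NLS, against 5.90 and 29.1 FPKM in EV. In bulk samples, fewer cells of a type and less RNA per cell cannot be told apart.

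ACSS2NLS cells did not differ from EV cells in one direction across the set: 4 genes had a higher mean log2 level and 4 a lower one, where 53.2% of all genes tested were higher and 46.8% lower. For Egr2, Nab2, Nr4a3 and Egr3 the ACSS2NLS libraries lay above the EV libraries, for Egr1 they lay below, and Nr4a1, Nr4a2 and Nab1 overlapped. The closest Egr3 libraries were nearly level, at 3.23 FPKM in ACSS2NLS replicate 1 and 3.22 FPKM in EV replicate 1. Libraries did not overlap upward for 19.3% and downward for 18.1% of the 9810 genes, 37.4% in all, against 5 of these 8. No gene of the set passed over all genes tested (limma-trend on log2(FPKM + 1), Benjamini-Hochberg adjusted p of at least 0.81). Of all genes 0.0204% passed, Acss2 and its antisense gene Acss2os. Acss2os lies within Acss2 on the opposite strand, and whether its tags came from Acss2 was not tested. At an unadjusted p under 0.05 stood 4 of the 8, namely Egr1, Egr2, Nr4a3 and Nab2, against 5.97% of all genes (3.1% higher and 2.87% lower). Below, each log2 change is taken on the log2(FPKM + 1) scale as ACSS2NLS minus EV, with its standard error (SE) from the fit and 2 libraries per group.

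**Figure D1:**
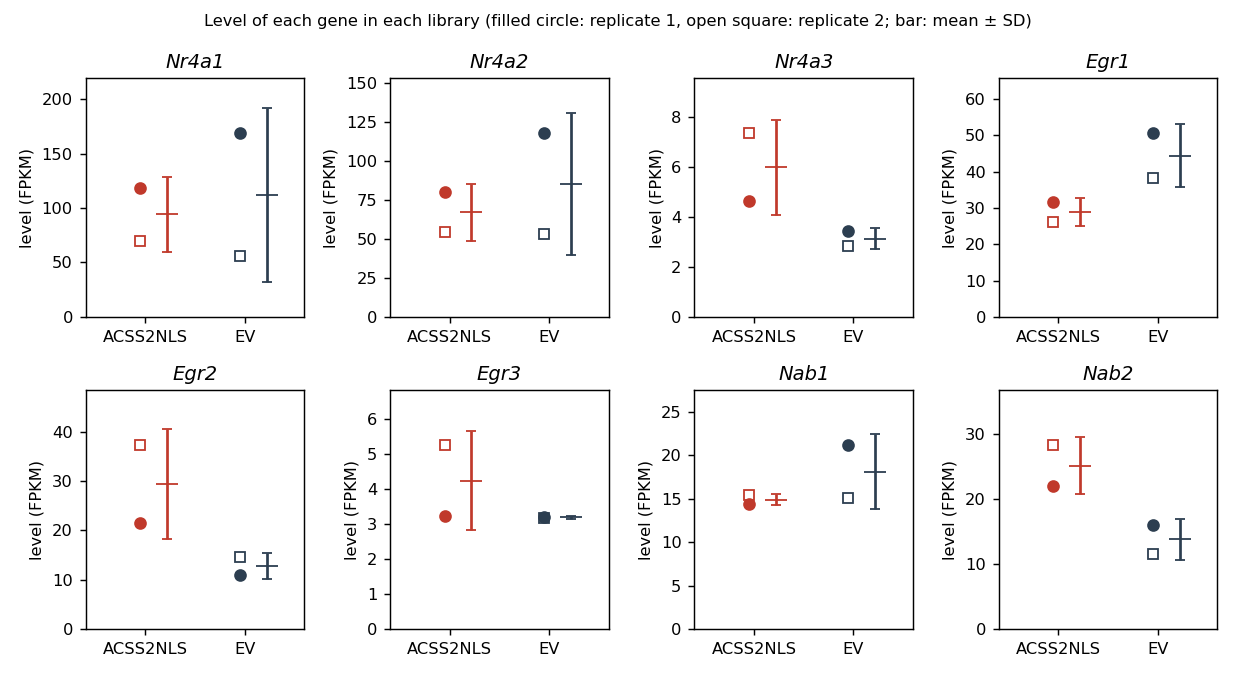
Level in FPKM (y axes, from 0) of the 8 genes in the ACSS2NLS and EV libraries; filled circles are replicate 1, open squares replicate 2, and bars the mean ± SD of 2 libraries. Egr2, Nr4a3 and Nab2 lie higher and Egr1 lower in both ACSS2NLS libraries, while the Nr4a1 and Nr4a2 libraries of the groups overlap. Egr3 stands higher in ACSS2NLS replicate 2, and in ACSS2NLS replicate 1 is nearly level with EV.

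Egr1 and Egr2, which bind nearly the same DNA sites, stood on opposite sides of EV. Egr1 (NM_007913), the EGR factor of broadest induction, was at 31.6 and 26.0 FPKM in ACSS2NLS replicates 1 and 2, against 50.5 and 38.3 FPKM in EV replicates 1 and 2. Every ACSS2NLS library lay below every EV library, and the EV mean was 1.54-fold the ACSS2NLS mean. Its log2 change was -0.60 ± 0.18 (limma-trend, unadjusted p = 0.0173, adjusted p = 0.81). This value was between -0.79 and -0.40 whichever library was left out.

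Egr2 (NM_001347458; chromosome 10, 67537930 to 67542188, plus strand), a factor of anergy and of T cell restraint, was at 21.4 and 37.2 FPKM in ACSS2NLS replicates 1 and 2, against 10.9 and 14.6 FPKM in EV replicates 1 and 2. The lowest ACSS2NLS library was above the highest EV library. The ACSS2NLS mean of 29.3 ± 11.1 FPKM was 2.30-fold the EV mean of 12.7 ± 2.63 FPKM (SD, n = 2 each). The log2 change of Egr2 was 1.10 ± 0.28 (limma-trend, unadjusted p = 0.00943, adjusted p = 0.81), and 0.693% of genes tested had a larger change in either direction. Without ACSS2NLS replicate 2, the library with the most melanoma RNA, the log2 change of Egr2 was 0.72, and without ACSS2NLS replicate 1 it was 1.49.

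Egr3 (NM_001289927; chromosome 14, 70077795 to 70082613, plus strand), which overlaps with EGR2 in function, was the lowest EGR gene. It stood at 3.23 and 5.25 FPKM in ACSS2NLS replicates 1 and 2, against 3.22 and 3.16 FPKM in EV replicates 1 and 2. The groups did not overlap, yet ACSS2NLS replicate 1 was level with the EV libraries and ACSS2NLS replicate 2 alone stood higher. Egr3 had a log2 change of 0.30 ± 0.22 (limma-trend, adjusted p = 0.835), which was 0.016 without ACSS2NLS replicate 2. The fourth EGR gene, Egr4, was at 0.286 to 0.450 FPKM in ACSS2NLS and 0.261 to 0.426 FPKM in EV, too low for the filter.

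The summed EGR level overlapped between the groups, and its makeup did not. The 3 genes summed to 56.3 and 68.5 FPKM in ACSS2NLS replicates 1 and 2, against 64.6 and 56.0 FPKM in EV replicates 1 and 2, with overlap. Egr2 made up 38.1% and 54.3% of that sum in ACSS2NLS replicates 1 and 2, against 16.9% and 26.1% in EV replicates 1 and 2. Egr1 made up 56.1% and 38.0% in the ACSS2NLS libraries, against 78.2% and 68.3% in the EV libraries. Egr1 was thus the leading EGR transcript in both EV libraries and in ACSS2NLS replicate 1, and Egr2 in ACSS2NLS replicate 2. The ratio of Egr2 to Egr1 within a library was 0.679 and 1.43 in ACSS2NLS replicates 1 and 2, against 0.216 and 0.382 in EV replicates 1 and 2. A ratio within a library does not depend on its depth. It differed 3.43-fold between the groups as a geometric mean (two-sided exact permutation test, p = 0.333, the smallest that 2 against 2 libraries can give). Replicate 2, with more myeloid and melanoma RNA, had the higher Egr2 to Egr1 ratio in both groups. The part of those cells in the ratio was not tested.

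The means of the NAB corepressors also stood on opposite sides of EV. Nab2 (NM_001122895; chromosome 10, 127660918 to 127666703, minus strand), the EGR-induced corepressor of the feedback loop, was at 22.1 and 28.3 FPKM in ACSS2NLS replicates 1 and 2, against 16.03 and 11.5 FPKM in EV replicates 1 and 2. The groups did not overlap, and the ACSS2NLS mean was 1.83-fold the EV mean. Nab2 had the smallest unadjusted p of the 8 genes, with a log2 change of 0.83 ± 0.20 (limma-trend, unadjusted p = 0.00742, adjusted p = 0.81). That change was between 0.61 and 1.05 whichever library was left out. The 3′ end of Nab2 shares 70 bases with Stat6 on the opposite strand. Stat6 was at 50.4 and 54.9 FPKM in ACSS2NLS and 53.7 and 55.4 FPKM in EV, a smaller difference than that of Nab2.

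Nab1 (NM_008667; chromosome 1, 52455849 to 52500448, minus strand), the corepressor that is less dependent on induction, was at 14.4 and 15.4 FPKM in ACSS2NLS replicates 1 and 2, against 21.1 and 15.0 FPKM in EV replicates 1 and 2. The groups overlapped, with only EV replicate 1 standing apart. Nab1 had a log2 change of -0.24 ± 0.18 (limma-trend, adjusted p = 0.835), which was -0.012 without EV replicate 1. The ratio of Nab2 to Nab1 did not overlap between the groups. It was 1.53 and 1.84 in the ACSS2NLS libraries, against 0.759 and 0.767 in the EV libraries, a 2.20-fold difference (two-sided exact permutation test, p = 0.333, the smallest possible here). Nab2 was thus the more abundant NAB transcript in both ACSS2NLS libraries and Nab1 in both EV libraries. Replicate 2, with more myeloid and melanoma RNA, had the higher ratio in both groups, though the EV libraries were nearly level. The part of those cells was not tested. Set against the summed EGR level, Nab2 was at 0.392 and 0.413 in the ACSS2NLS libraries and 0.248 and 0.206 in the EV libraries.

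**Figure D2:**
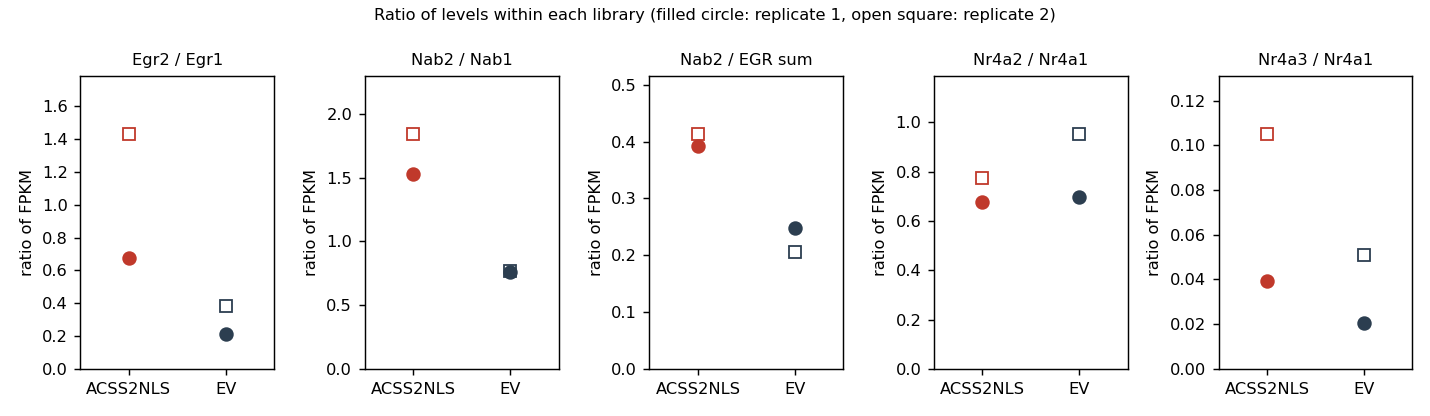
Ratio of FPKM levels within each library (y axes, from 0) for 5 pairs of genes or sums, in ACSS2NLS and EV; filled circles are replicate 1 and open squares replicate 2. Egr2 to Egr1, Nab2 to Nab1 and Nab2 to the EGR sum are higher in both ACSS2NLS libraries, while the ratios to Nr4a1 overlap.

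The NR4A genes were dominated by Nr4a1 and Nr4a2, and neither separated the groups. Nr4a1 (NM_010444; chromosome 15, 101266846 to 101274794, plus strand), which encodes NUR77, a widely used readout of TCR signal strength, was at 118 and 70.0 FPKM in ACSS2NLS replicates 1 and 2, against 168 and 55.7 FPKM in EV replicates 1 and 2. The EV libraries enclosed the ACSS2NLS libraries and differed 3.02-fold from each other. The log2 change of Nr4a1 was -0.09 ± 0.54 (limma-trend, adjusted p = 0.984), between -0.88 without EV replicate 2 and 0.70 without EV replicate 1. It was also above 0 without ACSS2NLS replicate 2 (0.28), when the myeloid or the melanoma marker level entered as a covariate (0.22 and 0.40), and at 0.044 when libraries were scaled to the CD8 markers, a scaling that moves the median of all genes from 0.015 to 0.13 and leaves Nr4a1 below it, as it is without the scaling.

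Nr4a2 (NM_001139509; chromosome 2, 57107226 to 57124003, minus strand), which encodes NURR1, was at 80.1 and 54.3 FPKM in ACSS2NLS replicates 1 and 2, against 118 and 53.0 FPKM in EV replicates 1 and 2. Its libraries ran in nearly the same pattern as those of Nr4a1, with the replicate 1 libraries high and the replicate 2 libraries low. Nr4a2 had a log2 change of -0.26 ± 0.40 (limma-trend, adjusted p = 0.917). It was 0.31 without EV replicate 1, 0.019 without ACSS2NLS replicate 2 and 0.10 with the melanoma covariate. The ratio of Nr4a2 to Nr4a1 was 0.677 and 0.775 in the ACSS2NLS libraries and 0.699 and 0.952 in the EV libraries, so the groups overlapped.

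Nr4a3 (NM_015743; chromosome 4, 48045305 to 48086446, plus strand), which encodes NOR1, was the rarest NR4A gene and the one whose groups separated. It stood at 4.65 and 7.35 FPKM in ACSS2NLS replicates 1 and 2, against 3.43 and 2.84 FPKM in EV replicates 1 and 2. The ACSS2NLS mean was 1.91-fold the EV mean, with an SD of 1.91 FPKM in ACSS2NLS and 0.417 FPKM in EV (n = 2 each). The log2 change of Nr4a3 was 0.74 ± 0.23 (limma-trend, unadjusted p = 0.0200, adjusted p = 0.81). It was 0.45 without ACSS2NLS replicate 2 and 1.02 without ACSS2NLS replicate 1. The share of Nr4a3 in the NR4A sum was 2.29% and 5.58% in ACSS2NLS replicates 1 and 2, against 1.18% and 2.54% in EV replicates 1 and 2, so as a share the groups overlapped.

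In FPKM, which is per length, the order of mean levels in ACSS2NLS cells was Nr4a1, Nr4a2, Egr2, Egr1, Nab2, Nab1, Nr4a3 and Egr3. In EV cells it was Nr4a1, Nr4a2, Egr1, Nab1, Nab2, Egr2, Egr3 and Nr4a3. Neighbours whose libraries overlapped in level were Nr4a1 and Nr4a2 in both groups, Egr2 and Egr1, Egr1 and Nab2, and Nr4a3 and Egr3 in ACSS2NLS, and Nab1 and Nab2, Nab2 and Egr2, and Egr3 and Nr4a3 in EV. The summed NR4A level was 203 and 132 FPKM in ACSS2NLS replicates 1 and 2, against 290 and 112 FPKM in EV replicates 1 and 2, which is above the EGR sum in every library.

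**Figure D3:**
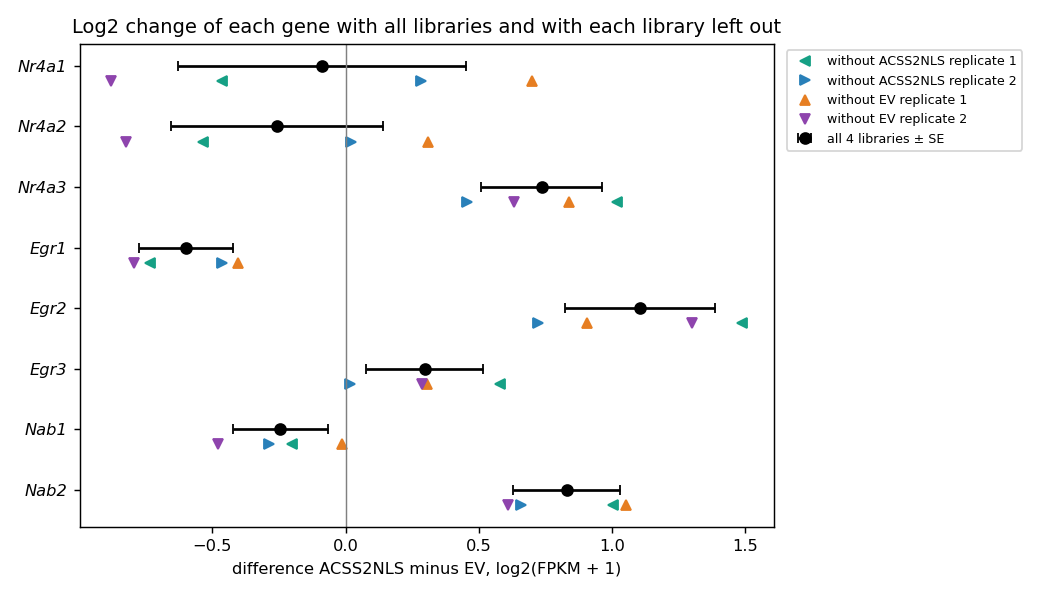
Log2 change (x axis, ACSS2NLS minus EV on the log2(FPKM + 1) scale) of each gene: black points with all 4 libraries ± SE, coloured marks with 1 library left out. Egr2, Nab2 and Nr4a3 stay above 0 and Egr1 below 0 in each case, while Nr4a1 runs between -0.88 and 0.70.

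Across the 4 libraries, Nab2 and Nr4a3 were the pair of the set with the most similar profile, with a root mean square difference of 0.12 between their centred log2(FPKM + 1) levels. Nr4a1 and Nr4a2 followed with 0.19 and Egr1 and Nab1 with 0.22. Among 5825 other genes whose mean reached 5 FPKM, Xcl1, the chemokine that attracts cross-presenting dendritic cells, lay nearest to Egr2, at 0.16. Xcl1 was at 383 and 570 FPKM in ACSS2NLS replicates 1 and 2, against 183 and 307 FPKM in EV replicates 1 and 2. After it came Iigp1, an interferon-induced GTPase, at 0.21. Only 4 genes lay within 0.25 of Egr2 and 6 within 0.25 of Nr4a1, against 661 for Egr1, 2146 for Egr3 and 3372 for Nab1, so a close neighbour of Egr1, Egr3 or Nab1 carries little information.

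The antiproliferative gene Tob1 was nearest to Nr4a1 at 0.16, and the repressor Tgif1 came next at 0.17. Tgif1 was nearest to Nr4a2 at 0.044, followed by the interferon regulatory factor gene Irf1 at 0.086. Tgif1 was at 23.4 and 14.4 FPKM in ACSS2NLS replicates 1 and 2, against 34.3 and 14.5 FPKM in EV replicates 1 and 2. The desaturase gene Scd2 was nearest to Nr4a3 at 0.070, and the GTPase gene Arl4d was next for Nr4a3 at 0.14 and nearest to Nab2 at 0.12. Trim59 was second for Nab2 at 0.15. The stress kinase gene Plk3 was nearest to Egr1 at 0.063, before the adaptor gene Nedd9 at 0.070. Lfng and Lipa were nearest to Egr3 at 0.033 and 0.038, and Wdr45b and Ccng1 to Nab1 at 0.018 and 0.028. These distances rest on 4 libraries that also differ in their share of other cells, and are descriptions.

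The other immediate early and TCR-induced genes, among them the AP-1 genes, MAP kinase phosphatases and NF-kappaB feedback genes, were mostly lower in ACSS2NLS, as Egr1 was and Egr2 was not. Lower means were found for 29 of 39 tested, where 46.8% of all genes were lower, and higher means for 10. Their median log2 change was -0.43, against 0.015 over all 9810 genes. None passed in either direction, and 10 lower ones and 0 higher ones had an unadjusted p under 0.05, against 2.87% and 3.1% of all genes (limma-trend). The groups did not overlap for 15 lower ones and 1 higher one, against 18.1% and 19.3% of all genes. Dusp2, a phosphatase of ERK, was at 150 and 109 FPKM in ACSS2NLS and 232 and 337 FPKM in EV (log2 change -1.13 ± 0.25). Bhlhe40, a TCR-induced repressor, was at 161 and 118 FPKM in ACSS2NLS and 447 and 228 FPKM in EV (log2 change -1.21 ± 0.35), and the small MAF gene Maff was at 0.788 and 0.950 FPKM in ACSS2NLS and 2.70 and 1.84 FPKM in EV. The summed level of the list was 2844 and 1822 FPKM in ACSS2NLS replicates 1 and 2, against 4689 and 3086 FPKM in EV replicates 1 and 2. In 25 of the 39 genes replicate 1 exceeded replicate 2 in both groups, as it did for Nr4a1 and Nr4a2, and 5 went the other way. The same held for 9 of the 11 CD8 T cell markers, with 0 the other way. The share of all genes with this pattern was not counted. The median of the list was -0.20 without ACSS2NLS replicate 2 and -0.16 without EV replicate 1. It was -0.69 and -0.72 without ACSS2NLS replicate 1 and EV replicate 2. It was -0.24 and -0.28 with the melanoma and the myeloid covariate.

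**Figure D4:**
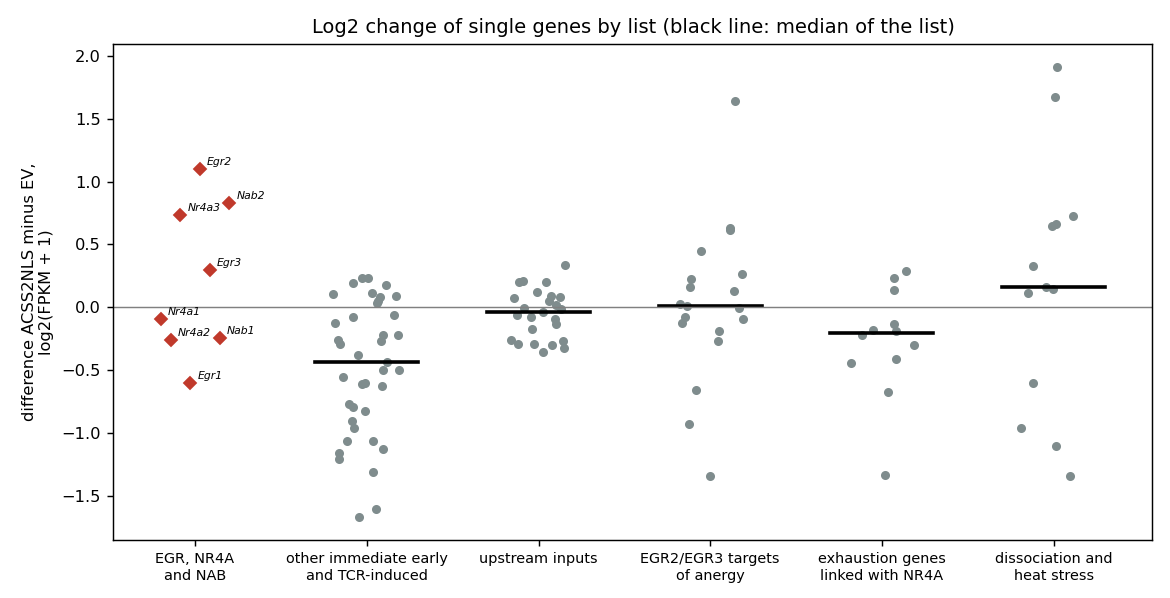
Log2 change (y axis, ACSS2NLS minus EV on the log2(FPKM + 1) scale) of single genes, by list; red diamonds are the 8 named genes, grey points the tested genes of each list other than these 8, and black lines the list medians. The other immediate early genes have a median of -0.43, while Egr2, Nab2 and Nr4a3 lie above every gene of that list.

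The genes upstream of EGR and NR4A induction had a median near that of all genes, 0.015, and more lower than higher members. Of 25 tested genes of SRF and its partners, MEF2, CREB, NFAT, calcineurin and ERK, 10 stood higher and 15 lower, the median log2 change was -0.040, and none passed (unadjusted p under 0.05 for 2 lower and 0 higher, against 2.87% and 3.1% of all genes). The groups did not overlap for 7 lower and 3 higher ones, against 18.1% and 19.3% of all genes. Ppp3cc, a catalytic subunit of calcineurin, was at 38.4 and 35.2 FPKM in ACSS2NLS and 49.7 and 43.1 FPKM in EV. Rcan1, an inhibitor of calcineurin that is itself induced by NFAT, was at 3.10 and 3.10 FPKM in ACSS2NLS and 4.33 and 4.17 FPKM in EV. Crtc2, a CREB coactivator, was at 13.3 and 13.3 FPKM in ACSS2NLS and 17.2 and 15.3 FPKM in EV. All 3 were lower in both ACSS2NLS libraries.

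The listed target genes of EGR2 and EGR3 in anergic T cells were split in direction. Of 19 tested, 10 stood higher and 9 lower, the median log2 change was 0.0093, and none passed (unadjusted p under 0.05 for 2 higher and 3 lower, against 3.1% and 2.87% of all genes). Without overlap between groups were 4 higher and 4 lower ones, against 19.3% and 18.1%. Id3, a regulator that EGR factors induce, was at 13.0 and 9.08 FPKM in ACSS2NLS and 2.98 and 2.63 FPKM in EV, a 3.93-fold difference in the direction of Egr2. The cell cycle inhibitor gene Cdkn1a, at 10.4 and 13.7 FPKM in ACSS2NLS and 30.2 and 18.5 FPKM in EV, stood the other way. So did the cytokine signalling inhibitor gene Socs3, at 14.2 and 11.2 FPKM in ACSS2NLS and 53.6 and 20.8 FPKM in EV. The exhaustion genes linked with NR4A factors had 3 of 12 higher and 9 lower, a median log2 change of -0.20, and none passed (unadjusted p under 0.05 for 0 higher and 1 lower, again against 3.1% and 2.87%). Without overlap were 0 higher and 3 lower ones, again against 19.3% and 18.1% of all genes. Entpd1, which encodes CD39, was at 7.70 and 8.46 FPKM in ACSS2NLS and 13.2 and 9.76 FPKM in EV. Pdcd1, which encodes PD-1, was at 129 and 120 FPKM in ACSS2NLS and 147 and 161 FPKM in EV. The homing receptor gene Ccr7 was at 121 and 64.8 FPKM in ACSS2NLS and 112 and 180 FPKM in EV, with overlap. Ccr7 is on this list but is not itself a marker of exhaustion. The count of lower genes on the list is therefore not a measure of exhaustion.

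Among relatives and partners of the set, 4 genes were tested, with 2 higher and 2 lower, and none passed (0 at an unadjusted p under 0.05). Rxrb, a partner receptor of NR4A1 and NR4A2, was at 13.5 and 13.8 FPKM in ACSS2NLS and 15.2 and 15.0 FPKM in EV. Chd3, a remodeller of the NuRD complex, was at 2.63 and 3.09 FPKM in ACSS2NLS and 1.91 and 2.46 FPKM in EV. Klf4, a zinc finger factor of quiescent T cells, was at 1.43 and 0.920 FPKM in ACSS2NLS and 3.61 and 1.20 FPKM in EV.

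Tissue dissociation and heat stress can induce immediate early genes, so genes of that response were set beside the 8. Of 13 tested, 9 stood higher and 4 lower, the median log2 change was 0.16, and none passed (unadjusted p under 0.05 for 3 higher and 1 lower, against 3.1% and 2.87% of all genes). Libraries did not overlap for 5 higher and 3 lower ones, against 19.3% and 18.1%. The chaperone genes Hspe1 and Hsp90aa1 were higher in both ACSS2NLS libraries, at 44.3 and 33.6 FPKM for Hspe1 in ACSS2NLS, against 21.96 and 23.8 FPKM in EV. Hsp90aa1 was at 31.6 and 23.4 FPKM in ACSS2NLS and 17.6 and 16.5 FPKM in EV. Socs3, also on this list, was lower in both ACSS2NLS libraries (log2 change -1.34 ± 0.43). The other lower ones were Gadd45b (-0.96), Gadd45g (-1.11) and Cebpb (-0.60). Relative to the mean of the 4 libraries, the list stood at 0.47 and -0.29 in ACSS2NLS replicates 1 and 2 and at 0.20 and -0.38 in EV replicates 1 and 2. The NR4A genes stood at 0.19 and -0.058 in ACSS2NLS replicates 1 and 2 and at 0.42 and -0.55 in EV replicates 1 and 2. As means, both were higher in replicate 1 of each group, where the myeloid markers were lower. Those markers stood at -0.51 in ACSS2NLS replicate 1 and -1.35 in EV replicate 1. Nr4a3 differed from the NR4A mean, at 4.65 FPKM in ACSS2NLS replicate 1 and 7.35 FPKM in ACSS2NLS replicate 2. The part of handling in the NR4A level was not tested, nor was that of other cells beyond the covariate fits.

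**Figure D5:**
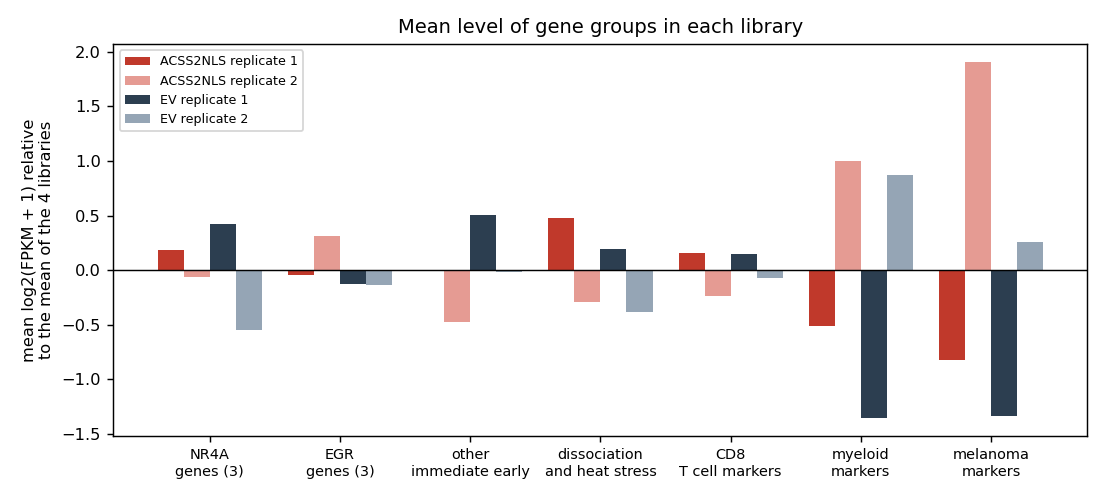
Mean log2(FPKM + 1) level of 7 gene groups in each library (y axis, relative to the mean of the 4 libraries); bars are single libraries of ACSS2NLS and EV. The NR4A and stress gene means are higher in replicate 1 of each group, and the myeloid and melanoma marker means in replicate 2. The EGR mean is highest in ACSS2NLS replicate 2.

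When the level of the myeloid markers entered as a covariate, a fit that leaves 1 residual degree of freedom, Egr2, Nab2 and Egr1 passed over all genes (limma-trend, log2 changes 0.97 with adjusted p = 0.000166, 0.86 with adjusted p = 0.00137 and -0.51 with adjusted p = 0.0438). In that fit 2.18% of all genes passed. The myeloid marker level, relative to the mean of the 4 libraries, was -0.51 and 0.996 in ACSS2NLS replicates 1 and 2. In EV replicates 1 and 2 it was -1.35 and 0.868. It thus ran with the replicate number in both groups, and the myeloid fit cannot separate myeloid RNA from other differences between replicates 1 and 2. With the melanoma marker level instead, which also leaves 1 residual degree of freedom, none of the 8 passed. Of all 9810 genes 2 were called higher and 1 lower in that fit. The melanoma marker level was -0.82 and 1.91 in ACSS2NLS replicates 1 and 2. In EV replicates 1 and 2 it was -1.34 and 0.26, so it too ran with the replicate number. In the melanoma fit the log2 changes were 0.81 for Egr2, 0.80 for Nab2, 0.61 for Nr4a3 and -0.45 for Egr1.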

How the data were processed

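RNA of CD8+ T cells from B16-GP33 tumours was purified with a column kit for small samples and made into libraries with the SMART-Seq v4 kit, per the labels' protocols. STAR 2.5.3a, HOMER and mm10 are named in the submitters' processing notes. The deposited values are FPKM, made by HOMER per the file headers from tags over exons (strand option plus), with 1 transcript kept per gene. The sources used here do not give whether the kit's libraries were stranded. The header names 8 tag directories, and the table has 4 library columns, all used. The columns are named Acss2WT and Acss2OE and were read as EV and ACSS2NLS.

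FPKM times length fell on whole steps for 100% of low values (tolerance 0.1 of a step), which gave the tags. Log2(FPKM + 1) was compared, for genes whose mean reached 1 FPKM, with limma-trend (limma 3.58.1, R 4.3.3), two-sided, Benjamini-Hochberg adjusted, at a threshold of 0.05. For 2 against 2 libraries the smallest p of an exact permutation test is 0.333.

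The genes and lists were chosen with earlier results of these data known. Beside the 8 genes and Acss2, the named genes are, for each list, the 3 with the lowest unadjusted p and the 2 genes nearest in profile to each of the 8. Genes outside these (Acss2os, Egr4, Stat6, S100a8, S100a9, Cd14, Gpr143, Gadd45b, Gadd45g and Cebpb) were chosen after their values were seen. Alternatives were other pseudocounts, filters and scalings, each library left out, a replicate block and marker covariates.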

Additional observations from a re-analysis of the deposited data

How the results depend on the processing

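Where a library was left out, the lone library of its group was assumed to vary like the others. Limits come first from 2 libraries per group, and from myeloid and melanoma RNA that varied within groups and had higher means in ACSS2NLS. Genes called higher over all genes were 2 with all libraries, 2 whichever library was left out, 1 with no filter on low values, 101 with the myeloid covariate and 229 with the replicate block. Genes called lower were 0 with all libraries in limma-trend (282 at an unadjusted p under 0.05), 0 to 9 with a library left out (9 without EV replicate 1), 1 with the melanoma covariate, 113 with the myeloid covariate and 172 with the replicate block. The labels do not say what a shared replicate number means, and with 2 pairs the data cannot establish pairing. The difference of replicate 1 and 2 correlated between the groups over 9810 genes (r = 0.58). With the replicate block, which leaves 1 residual degree of freedom, Egr2 (adjusted p = 1.75e-05), Nab2 (adjusted p = 0.00201), Egr1 (adjusted p = 0.00469) and Nr4a3 (adjusted p = 0.0199) passed, where 4.09% of all genes did.

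Egr1, Egr2, Egr3, Nab1, Nab2 and Nr4a3 kept their direction under every alternative that could give a value; Egr3 and Nr4a3 have none at a mean of at least 5 FPKM. Nr4a1 turned upward without EV replicate 1 (0.70), without ACSS2NLS replicate 2 (0.28), with the myeloid (0.22) and melanoma (0.40) covariates and with CD8 marker scaling (0.044). That scaling moves the median of all genes to 0.13, so a value just below 0 turns with it, and Nr4a1 stayed below the median of all genes. Nr4a2 turned upward without EV replicate 1 (0.31), without ACSS2NLS replicate 2 (0.019) and with the melanoma covariate (0.10). Leaving out libraries gave -0.88 to 0.70 for Nr4a1 and -0.83 to 0.31 for Nr4a2. The cause was not tested.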
